A study of Mus musculus with 6 samples.

Results

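The genes described here encode the machinery of cell division: the mitotic cyclins and kinases, the spindle checkpoint, the kinetochore, the spindle motors, the condensin complex and the anaphase promoting complex. They were chosen as a list of 48 mouse symbols out of 18194 genes with a named probe set. A probe set with 1 gene symbol was found for 47 of the 48, and Ccnb1 was not analysed here. All 47 were tested. The cells were A20, a B lymphoma line of BALB/c mouse origin, and total RNA was hybridised to Affymetrix mouse genome arrays. There were 6 conditions with 1 array each. Unstimulated cells were kept with DMSO or with SP600125 for 24 h. Stimulated cells received TGF-β for 12 h or 24 h, each with DMSO or with SP600125. All 6 share the same line and medium, and no genetic change is named. SP600125 is an inhibitor of the JNK kinases that is also known to inhibit other kinases. Doses were not given in the sources used here. The drug was present for 24 h on its unstimulated array but for 12 h on its 12 h TGF-β array, so the drug pairs differ in exposure. Both TGF-β times are compared with the same unstimulated arrays, and no separate unstimulated array was made for 12 h. Differences at 12 h and from 12 h to 24 h thus cannot be told apart from time in culture. Nothing in the labels describes repeated cultures, and with 1 array per condition the spread between such cultures was not measured. In the main model the p-values rest on departures of the arrays from a sum of TGF-β and drug effects. Those departures hold technical spread as well.

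As background, the mitotic genes are transcribed in a wave that peaks as cells approach division. In resting or early cycling cells the DREAM complex binds a short element, the cell cycle genes homology region (CHR), and holds many of them silent, while in late cycle MYBL2 and FOXM1 with NF-Y, which binds CCAAT boxes, drive them. TGF-β restrains proliferation of normal B cells and of many B lymphoma lines, and the level of these transcripts is commonly read as a measure of how many cells are in late cycle. In bulk RNA, fewer cells in late cycle and less transcript per cell cannot be told apart.

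Promoter windows from RefSeq (build GRCm38.p6, which is C57BL/6J sequence, while A20 is BALB/c) were searched for the CHR letters TTTGAA and for CCAAT on both strands. They were matched by symbol for 40 of the 48 genes. Ccna2, Cdc25c, Aurkb, Incenp, Spc24, Kif20a, Tpx2 and Smc4 had no match. Of the 40 windows of 300 bases, 29 held TTTGAA (72.5%, against 20.2% of 27025 genes with a window), and 32 held CCAAT (80.0%, against 41.1%). Both were present in 26 (65.0%, against 7.97%) and neither in 5 (12.5%, against 47.7%). Within 50 bases of the start, a distance chosen after the matches were seen, TTTGAA was present in 26 of 40 (65.0%, against 5.72%). The 29 measured genes with TTTGAA had a median 24 h TGF-β effect of −0.53 (log2) and the 10 without it −0.42. Their ranges overlapped, from −1.18 to −0.21 with it and from −1.24 to 0.44 without it. The difference was not tested. A match describes letters in a window and is not a binding site. The windows below run from 120 bases before to 30 after the start, 5′ to 3′ on the gene's strand, with matches on either strand in capitals (TTTGAA or TTCAAA, and CCAAT or ATTGG). No matched bases overlap. Cdk1 (chr10:69352883-69353032, minus strand) and Ccnb2 (chr9:70421525-70421674, minus strand) are shown as the core mitotic kinase and its cyclin. Ube2c (chr2:164769809-164769958, plus strand) and Espl1 (chr15:102296173-102296322, plus strand) are shown for their large falls at 24 h. Mad2l1 (chr6:66535101-66535250, plus strand) is shown because it has the lowest 24 h value of the 47 and neither motif. Cenpe (chr3:135212443-135212592, plus strand) is shown because it alone was called higher at 24 h.
Cdk1: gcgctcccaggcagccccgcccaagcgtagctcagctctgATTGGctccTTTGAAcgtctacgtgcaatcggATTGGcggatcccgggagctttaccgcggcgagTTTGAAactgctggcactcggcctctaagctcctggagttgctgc
Ccnb2: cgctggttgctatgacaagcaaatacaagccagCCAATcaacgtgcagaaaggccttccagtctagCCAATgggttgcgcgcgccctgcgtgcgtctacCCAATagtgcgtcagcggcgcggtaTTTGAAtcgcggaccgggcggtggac
Ube2c: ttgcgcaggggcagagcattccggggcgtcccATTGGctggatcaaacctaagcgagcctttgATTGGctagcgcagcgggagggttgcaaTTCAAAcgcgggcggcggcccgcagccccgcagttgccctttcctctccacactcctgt
Espl1: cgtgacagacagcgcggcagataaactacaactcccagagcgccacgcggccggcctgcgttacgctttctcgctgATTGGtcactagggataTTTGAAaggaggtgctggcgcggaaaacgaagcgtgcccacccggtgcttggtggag
Mad2l1: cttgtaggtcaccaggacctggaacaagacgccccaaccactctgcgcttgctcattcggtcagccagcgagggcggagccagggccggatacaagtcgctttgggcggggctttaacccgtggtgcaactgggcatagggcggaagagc
Cenpe: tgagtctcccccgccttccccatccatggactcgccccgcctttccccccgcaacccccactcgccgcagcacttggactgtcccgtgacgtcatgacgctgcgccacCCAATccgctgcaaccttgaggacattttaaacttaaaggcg
The Cdk1 window holds 2 TTTGAA and 2 CCAAT matches, Ccnb2 holds 1 and 3, Ube2c 1 and 2, and Espl1 1 and 1. Cenpe holds 1 CCAAT and no TTTGAA, and Mad2l1 holds neither.

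Levels are the deposited signals, linear intensities of each gene's brightest probe set. The mitotic genes were bright on every array: their signals ran from 381.9 to 19705.3, against a floor of 74.2 below which signals were levelled. Array medians lay between 69.3 and 80.9. The TGF-β 24 h array with drug differed from the others in its controls. The 18S ribosomal RNA control read 5878.2 there and 506.5 to 881.5 elsewhere, and the 3′/5′ ratio of actin was 1.89 there and 1.25 to 1.51 elsewhere. The part these play in the results was not tested, and values without that array are given where they matter. B cell markers were above the floor on all arrays for 7 of the 7 found, with summed signals of 30440.2 to 47392, while 0 of 7 T and NK cell markers and 0 of 5 fibroblast markers were. Of 6 myeloid markers, Csf1r and Adgre1 were above it on every array, and of 4 erythroid and platelet markers found, Itga2b was.

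Most mitotic genes fell by 24 h of TGF-β, while few were called at 12 h. In an additive limma model over all 6 arrays, with TGF-β state and drug as terms, 28 of 47 fell at 24 h and 1 rose at a Benjamini-Hochberg adjusted p under 0.05, where 7.59% of all 11698 genes tested fell and 9.16% rose. At 12 h 0 fell and 2 rose, against 2.5% and 2.74% of all genes. The median 24 h effect over the 47 was −0.53 on the log2 scale, against 0.07 over all genes tested, and the median 12 h effect was 0.08 against 0.02. The other 18 were not called at 24 h, and 46 of the 47 values were negative. At an unadjusted p under 0.05, 35 were lower and 1 higher, where 13.3% of all genes were lower and 18.1% higher. Without the unstimulated SP600125 array 16 fell, and without the 24 h array with drug 19 did. These counts hold with the gene filter reapplied to the 5 arrays left. Without the unstimulated SP600125 array the calls of Ccnb2, Cenpf, Spc24, Spc25, Kif11, Kif2c, Tpx2, Top2a, Smc2, Ncapd2, Ncaph and Mki67 were lost. Without the 24 h array with drug those of Ccnb2, Cenpf, Spc24, Spc25, Kif23, Kif2c, Tpx2, Top2a, Smc2 and Ncapd2 were. With the filter of the 6 arrays kept, which retains genes above the floor on a single array, 0 to 7 fell and the 29 called genes all kept their sign in these fits. With no intensity trend in the prior 4 fell, Ccna2, Mad2l1, Ube2c and Espl1, and with probe sets averaged per gene 18 fell.

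**Figure D1:**
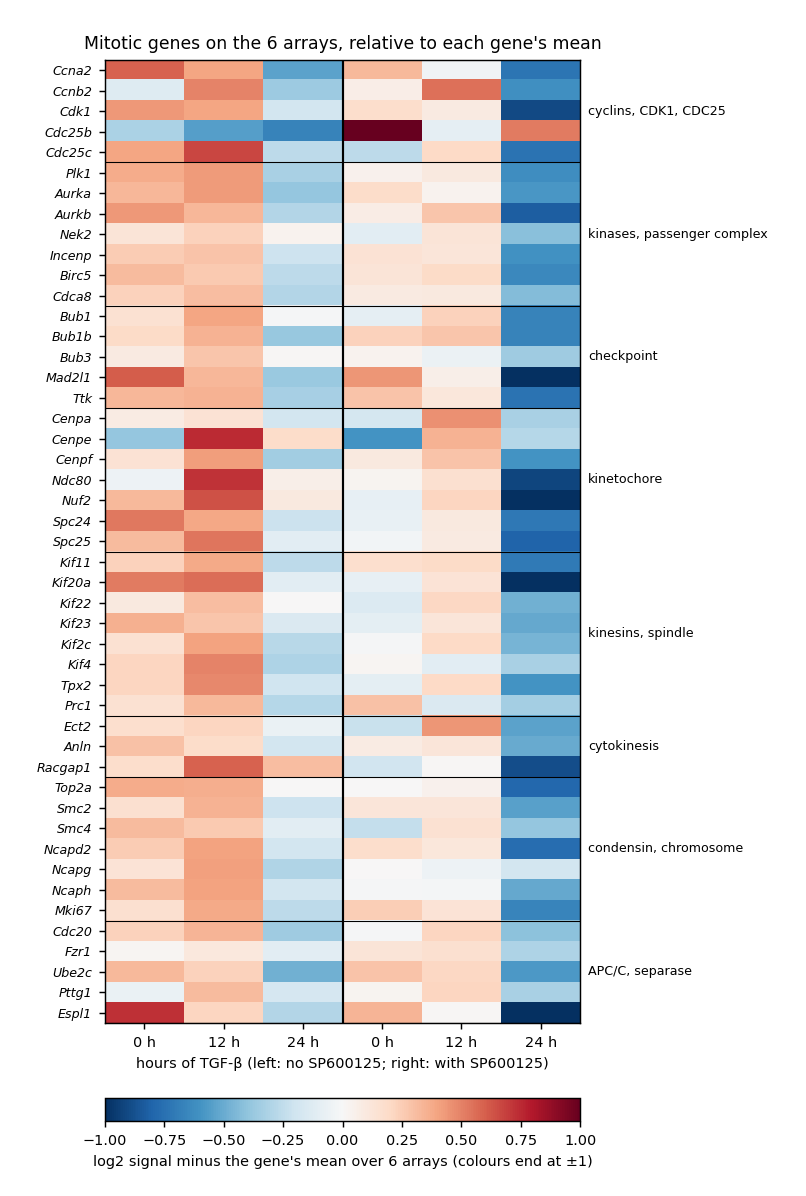
Each row is 1 of the 47 mitotic genes and each column 1 array, ordered by hours of TGF-β without and then with SP600125. Colour is the log2 signal minus the gene's mean over the 6 arrays, and the 24 h columns are blue for most genes, with the 24 h array with drug the lowest for 44 of 47.

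The order of the arrays was alike over most of these genes. Both 24 h arrays lay below the other 4 for 35 of 47 (8.51% of all genes tested), and both lay above them for 0 of 47 (12.8%). The 24 h array with drug was the lowest of the 6 for 44 genes (16.2% of all genes), all but Cdc25b, Cenpe and Ncapg. A 12 h array was the highest for 34 (23.9%), and for 30 it was the 12 h array without drug (13.4%). In both arms 24 h lay below 0 h for 44 genes (27.8%), with Cenpe, Ndc80 and Racgap1 the exceptions, and below 12 h for 46 (24.2%), with Cdc25b the exception. By contrast, 24 genes were above 0 h at 12 h in both arms (33.2%).

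**Figure D2:**
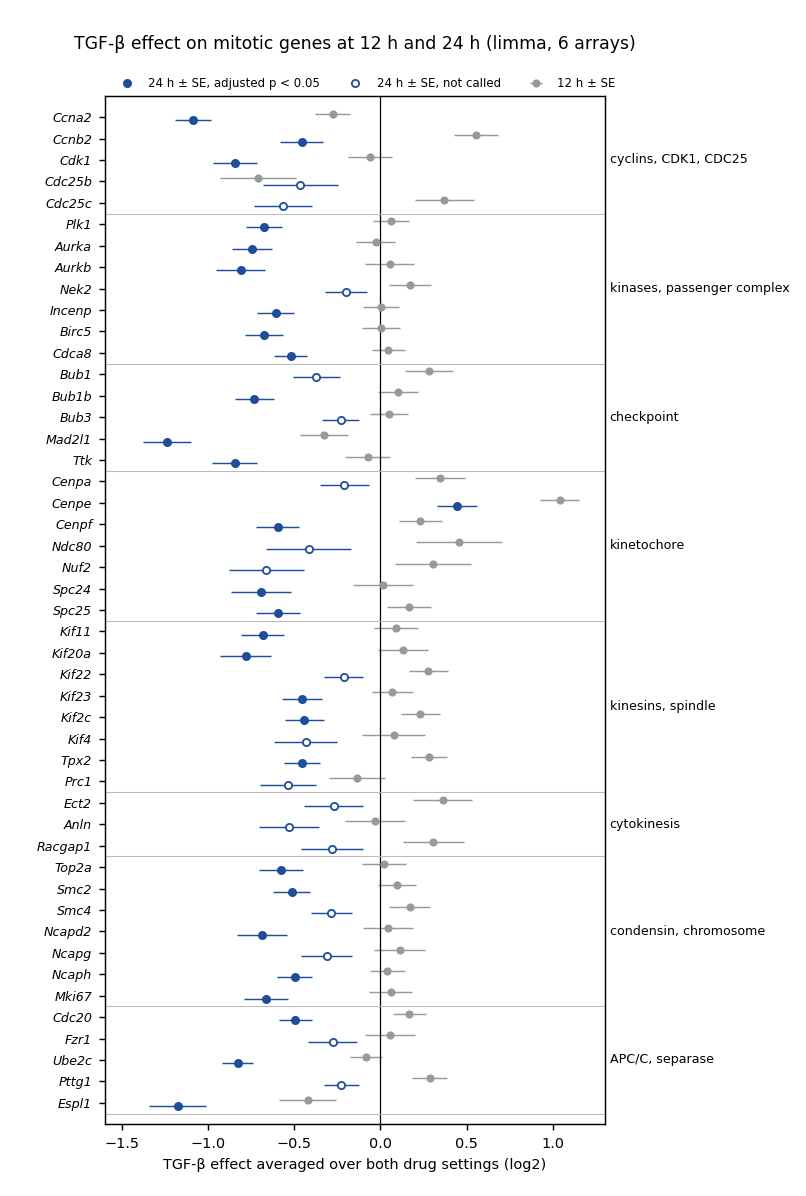
Points give the TGF-β effect at 12 h (grey) and 24 h (blue, filled where called) for each of the 47 mitotic genes by role, in log2 units with bars of ±1 SE from limma. The 24 h points lie left of 0 for 46 genes, and Cenpe alone lies right of it.

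Among the cyclins, CDK1 and the CDC25 phosphatases, 3 of the 5 measured fell at 24 h, with a median of −0.56. Cyclin A2 (Ccna2), which partners CDK2 and then CDK1 from S phase to early mitosis, had signals of 7798, 6824 and 3579.5 at 0, 12 and 24 h without drug and 6497, 5055 and 3130 with SP600125. Both arms stepped down, and the 24 h arrays lay at 45.9% and 48.2% of 0 h. Its 24 h effect was −1.09 ± 0.10 with a limma Benjamini-Hochberg adjusted p of 0.00122. Cdk1, the kinase that drives mitotic entry, had 7789.5, 7605 and 5081 without drug and 6518, 6152 and 3098 with it. The 0 h and 12 h levels were close in each arm, and the drop came by 24 h, to 65.2% and 47.5% of 0 h. Its 24 h effect was −0.84 ± 0.13 (adjusted p = 0.00557, limma). Cyclin B2 (Ccnb2), a mitotic partner of CDK1, had 3497, 5389.9 and 2969 without drug and 4009.9, 5610.4 and 2502 with it. The 12 h arrays were the highest and the 24 h arrays the lowest in both arms. It rose by 0.55 ± 0.13 at 12 h (adjusted p = 0.0469, limma) and fell by 0.46 at 24 h (SE 0.13, adjusted p = 0.0423). The 12 h call was lost under median scaling and without the untreated array or either 12 h array, and the 24 h call with quantile normalization and without the unstimulated SP600125 array or the 24 h array with drug. Cdc25c, a phosphatase that activates CDK1, was at −0.56 ± 0.17 at 24 h and was not called (adjusted p = 0.0576, limma).

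The mitotic kinases and the chromosomal passenger complex had 6 of 7 genes fall at 24 h, with a median of −0.67, and 0 of 7 called at 12 h. Aurora B (Aurkb), the kinase of the passenger complex that corrects faulty kinetochore attachments, had signals of 2641, 2467 and 1601 at 0, 12 and 24 h without drug and 2065, 2377 and 1105 with it. Its 24 h effect was −0.81 ± 0.14 (adjusted p = 0.00866, limma). Aurora A (Aurka), which acts at spindle poles, had 3099.6, 3314 and 1884 without drug and 2807, 2523 and 1645 with it, and its effect was −0.74 ± 0.12 (adjusted p = 0.00596). For both kinases the 24 h arrays did not overlap the other 4. Plk1, a kinase of mitotic entry and cytokinesis, fell to 61.9% of 0 h without drug and 63.4% with it, with an effect of −0.67 ± 0.10. The other passenger subunits followed: Incenp at −0.61 ± 0.11, Birc5 (survivin) at −0.68 ± 0.11 and Cdca8 (borealin) at −0.52 ± 0.10, all called by limma. Nek2, a centrosomal kinase, had 2911, 3134 and 2737 without drug and 2477, 2925 and 1995 with it. Its value of −0.20 ± 0.12 was not called, and another of its probe sets went the other way, with 620, 804 and 1139 without drug and 575, 980 and 830 with it.

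Of the 5 spindle checkpoint genes, which delay anaphase until all chromosomes are attached, 3 fell at 24 h and the median was −0.73. Mad2l1, whose protein MAD2 holds CDC20 inactive, had signals of 5356, 4447 and 2726 at 0, 12 and 24 h without drug and 4786, 3665 and 1684 with it. It stepped down at both times in both arms, to 50.9% and 35.2% of 0 h at 24 h, and its effect was −1.24 ± 0.14 (adjusted p = 0.00205, limma). Ttk (MPS1), the kinase that starts checkpoint signalling, had 2223, 2246 and 1400 without drug and 2147, 1916 and 1057 with it, and its effect was −0.85 ± 0.13 (adjusted p = 0.00596). Its 2 lowest arrays were those at 24 h. Bub1b (BUBR1) was at −0.73 ± 0.11 and was called. Bub1, the kinase that recruits other checkpoint proteins to the kinetochore, was at −0.37 ± 0.14 with an adjusted p of 0.103 in limma. Its other probe set was at −1.01 without drug and −0.63 with it at 24 h against 0 h. With probe sets averaged per gene Bub1 was called as fallen. Bub3, the common binding partner of BUB1 and BUBR1, had 13144, 15034 and 12511 without drug and 12670, 11888 and 9654 with it. The untreated and 24 h arrays without drug differed little, the value of −0.23 ± 0.11 was not called, and the lowest array was that of 24 h with drug.

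The 7 centromere and kinetochore genes were mixed: at 24 h 3 fell, 1 rose and 3 were not called, with a median of −0.60. Spc24 and Spc25, subunits of the NDC80 complex that grips microtubules, were at −0.69 ± 0.17 and −0.60 ± 0.13 and both fell, with adjusted p of 0.0315 and 0.0185 in limma. With the filter reapplied, Spc24 lost its call without either unstimulated array or either 24 h array. Spc25 lost it without the unstimulated SP600125 array or the 24 h array with drug, and with probe sets averaged per gene. The other subunits, Ndc80 and Nuf2, were at −0.42 ± 0.25 and −0.66 ± 0.22 and were not called (adjusted p = 0.299 and 0.0758). Ndc80 had signals of 696, 1193 and 752 at 0, 12 and 24 h without drug and 735, 806 and 382 with it, and Nuf2 had 1655, 2054 and 1420 without and 1249, 1535 and 581 with it. Both were close to 0 h at 24 h without drug and far below it with drug. Ndc80 lay at 108% and 51.9% of 0 h, and Nuf2 at 85.8% and 46.5%. The lower values with drug rest on the 24 h array with drug, whose controls differed from those of the other arrays. The part of that array's controls in them was not tested. The pair without drug does not use that array. There the log2 difference of 24 h against 0 h was 0.11 for Ndc80 and −0.22 for Nuf2. Without the unstimulated SP600125 array the 24 h TGF-β effect of Ndc80 in limma was 0.0094. Cenpf, a late-cycle kinetochore protein, fell by 0.60 (SE 0.13, adjusted p = 0.0175). Cenpa, the histone H3 variant that marks centromeres, had 4489, 4671 and 3726 without drug and 3744, 5823 and 3376 with it, and its value of −0.21 ± 0.14 was not called.

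Cenpe, a kinesin that carries chromosomes to the spindle equator, stood apart from the rest. Its signals were 1931, 4238 and 2881 at 0, 12 and 24 h without drug and 1672, 3217 and 2073 with SP600125. In both arms the 12 h array was the highest and the 24 h array lay between 12 h and 0 h. It rose by 1.04 ± 0.12 at 12 h (adjusted p = 0.00425, limma) and 0.44 ± 0.12 at 24 h (adjusted p = 0.0357). Its other probe set ran the same way, with 802, 1942 and 1554 without drug and 630, 1706 and 1177 with it. The 12 h call was made with any 1 array left out and the filter reapplied, but with the filter of the 6 arrays kept it was lost in 5 of 6 such fits, and it was lost with no intensity trend. The 24 h call was lost without the untreated array, either 12 h array or the 24 h array without drug, and under median scaling.

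Of 8 kinesin and spindle assembly genes 5 fell at 24 h and the median was −0.45. Kif20a (MKLP2), a motor of the central spindle, had signals of 2575, 2649 and 1672 at 0, 12 and 24 h without drug and 1699, 1982 and 884 with it, and its 24 h effect was −0.78 ± 0.15 (adjusted p = 0.0109, limma). Kif11 (Eg5), which pushes spindle poles apart, had 2926, 3258 and 2087 without drug and 2812, 2856 and 1528 with it, and its effect was −0.68 ± 0.13 (adjusted p = 0.0109). At 12 h Kif20a lay at 103% of 0 h without drug and 117% with it, and Kif11 at 111% and 102%. Both motors were lower at 24 h than at 0 h in each arm. Kif23 at −0.45 ± 0.12, Kif2c at −0.44 ± 0.11 and the spindle assembly factor Tpx2 at −0.45 ± 0.10 also fell. These calls were fragile. With the filter reapplied, Kif2c lost its call whichever array was left out. Tpx2 lost it without either unstimulated array or the 24 h array with drug. Kif23 lost it without the untreated array or the 24 h array with drug. Kif4 at −0.43 ± 0.18 and the microtubule bundler Prc1 at −0.54 ± 0.16 were not called, and another probe set of Prc1 was higher at 24 h than at 0 h in both arms. Kif22, a chromosome arm motor, had 8383, 9728 and 7889.9 without drug and 7139.6, 9039.9 and 5639 with it. Its value of −0.21 ± 0.11 in this probe set was not called. At 24 h against 0 h this probe set was at −0.09 without drug and −0.34 with it. The other Kif22 probe sets were lower, at −0.67 and −0.43 without drug and −1.14 and −0.997 with it. With probe sets averaged per gene Kif22 was still not called.

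None of the 3 cytokinesis genes was called at 24 h, and their median was −0.28. Ect2, which activates RhoA at the cleavage furrow, had signals of 2355, 2439 and 2003 at 0, 12 and 24 h without drug and 1795, 2855 and 1447 with it. The 12 h array with drug was its highest and the value at 24 h was −0.27 ± 0.17. Anln, a scaffold of the contractile ring, was at −0.53 ± 0.17 (adjusted p = 0.0735, limma), the only 1 of the 3 with an unadjusted p under 0.05. Racgap1, which forms the centralspindlin complex with KIF23, was at −0.28 ± 0.18, and at 0.081 without the 24 h array with drug.

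Condensin, topoisomerase and the chromosome surface gave 5 falls of 7 and a median of −0.52. The condensin I subunit Ncapd2 had signals of 2034, 2256 and 1504 at 0, 12 and 24 h without drug and 1927, 1846 and 1006 with it, and its 24 h effect was −0.69 ± 0.15 (adjusted p = 0.0179, limma). Mki67, the Ki-67 proliferation marker that coats mitotic chromosomes, had 11845, 13830.2 and 8874 without drug and 12597, 11694 and 6704 with it, and its effect was −0.66 ± 0.13 (adjusted p = 0.0119). In both genes the 24 h arrays did not overlap the other 4. Ncaph at −0.50 ± 0.10, the core subunit Smc2 at −0.52 ± 0.11 and Top2a, which untangles sister DNA, at −0.58 ± 0.13 fell too. Smc4, the partner of Smc2 in condensin, had 11377, 10949.8 and 8494 without drug and 7719, 10148 and 6962 with it. The unstimulated array with drug was already low for Smc4 in this probe set, and the 24 h value of −0.29 ± 0.12 was not called. The drug difference at 0 h was −0.56 here, and −0.15 and −0.45 in the other Smc4 probe sets. At 24 h against 0 h those were at −0.46 and −0.48 without drug and −0.63 and −0.81 with it. With probe sets averaged per gene Smc4 was called as fallen. Ncapg at −0.31 ± 0.15 was not called.

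Among 5 genes of the anaphase promoting complex and separase, 3 fell at 24 h, the median was −0.49, and both 24 h arrays were the lowest for all 5. Espl1 encodes separase, the protease that cuts cohesin at anaphase, and had signals of 1699, 1187 and 838 at 0, 12 and 24 h without drug and 1296, 1033 and 514 with it. It stepped down in each arm, to 49.3% and 39.6% of 0 h, with an effect of −1.18 ± 0.17 (adjusted p = 0.00423, limma). Ube2c, the ubiquitin-conjugating enzyme of the complex, had 9015, 8451 and 5169 without drug and 8773, 8328 and 4845 with it. The drug and DMSO arrays were nearly level at each time, and the effect at 24 h was −0.83 ± 0.09 (adjusted p = 0.002). Cdc20, the mitotic activator of the complex, fell by 0.49 (SE 0.10), whereas Fzr1 (CDH1), its activator in late mitosis and G1, was at −0.28 ± 0.15 and was not called. Pttg1, securin, which inhibits separase, had 15116, 19705 and 14065 without drug and 16057, 18274 and 12589 with it. Its 12 h arrays were the highest, and its 24 h value of −0.23 ± 0.10 was not called.

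**Figure D3:**
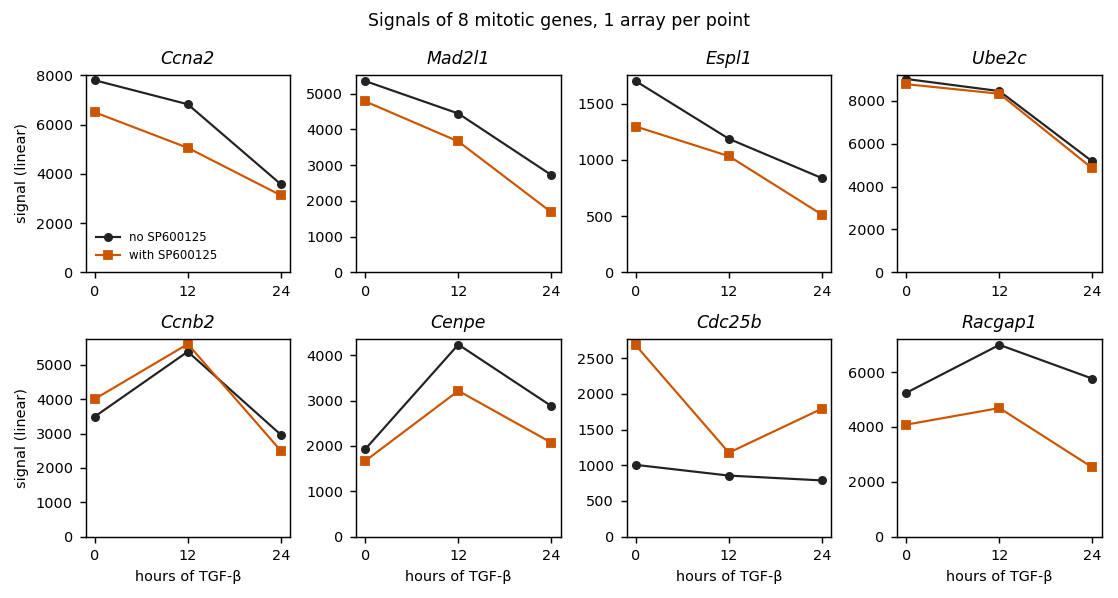
Signal (linear, from 0) against hours of TGF-β for 8 mitotic genes, 1 array per point, without (black circles) and with SP600125 (orange squares). Ccna2, Mad2l1 and Espl1 step down, Ube2c drops between 12 h and 24 h, Ccnb2 and Cenpe peak at 12 h, and Cdc25b and Racgap1 are separated by the drug.

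The step from 12 h to 24 h compares the 24 h arrays with the 12 h arrays, with its spread estimated from all 6 arrays, and shares the 24 h arrays with the comparison above. Its median over the 47 was −0.67, against 0.04 over all genes, and 46 were lower and 0 higher at an unadjusted p under 0.05, where 6.98% of all genes were lower and 8.38% higher. After adjustment 3 fell and 0 rose, where 0.0256% of all genes fell and 0.0684% rose. The 3 were Ccna2 (−0.81 ± 0.10), Ccnb2 (−1.01 ± 0.13) and Ube2c (−0.75 ± 0.09), each with a limma adjusted p of 0.0496, and they were the only 3 of all genes tested that fell. This count moved widely with the fit: it was 0 without either 12 h array, 9 without the 24 h array with drug, and 34 to 37 without any 1 of the other 3 arrays, with the filter reapplied. It was 0 with the filter of the 6 arrays kept and 31 with a filter of at least 3 arrays, which was chosen after seeing the data.

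**Figure D4:**
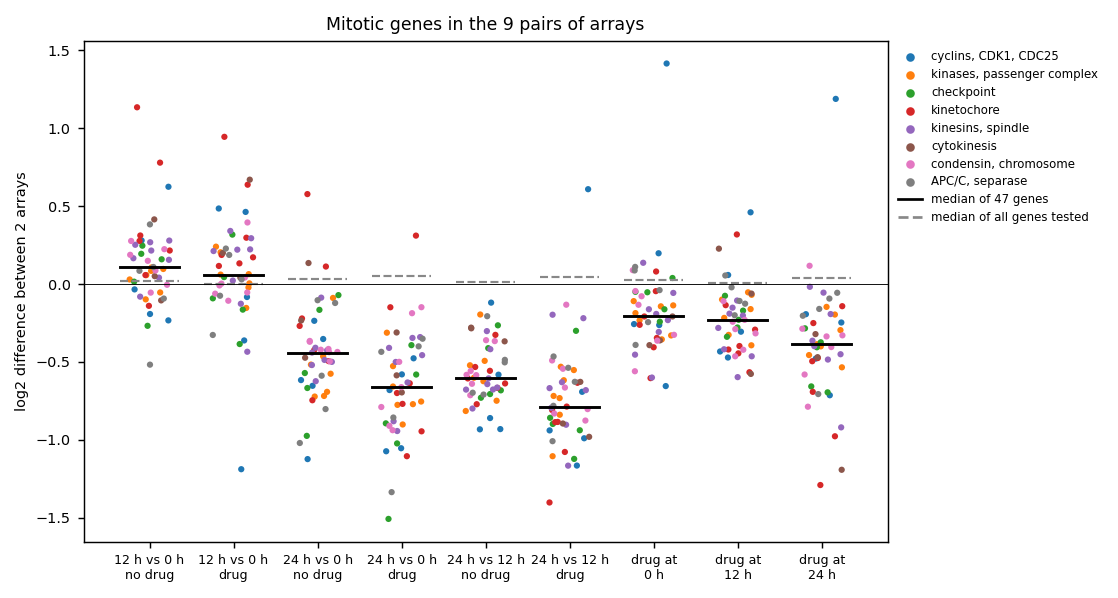
Each point is 1 mitotic gene's log2 difference between 2 arrays, in the 9 pairs of the design, coloured by role. Solid lines are the median of the 47 genes and dashed lines that of all genes tested, and the solid line lies lowest in the 24 h against 12 h pair with drug.

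In single pairs of arrays, which carry no test, the 24 h against 0 h median was −0.44 without drug and −0.66 with SP600125. From 12 h to 24 h it was −0.60 and −0.79, and from 0 h to 12 h it was 0.11 and 0.06. By the 2-fold rule of the study design, Ccna2 and Espl1 were lower at 24 h than at 0 h without drug, 2 of 47 where 1.89% of all genes were. With drug 6 of 47 were (1.98% of all genes): Ccna2, Cdk1, Mad2l1, Ttk, Nuf2 and Espl1. At 24 h against 0 h 0 of 47 were 2-fold higher in either arm (5.44% of all genes without drug and 4.54% with it). Cenpe alone was 2-fold higher at 12 h without drug (1 of 47, 3.2% of all genes), where 0 of 47 were lower (1.44%). With drug Cdc25b was lower at 12 h (1 of 47, 1.28%) and 0 of 47 were higher (2.47%). From 12 h to 24 h without drug 0 of 47 passed the rule, where 0.795% of all genes were lower and 1.59% higher. With drug 7 of 47 were lower (1.28%), namely Ccnb2, Aurkb, Mad2l1, Nuf2, Ndc80, Kif20a and Espl1, and 0 of 47 were higher (1.97%). The 24 h pair with drug contains the array with the high 18S signal.

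SP600125 gave smaller differences of the same sign in most of these genes. Across the 3 TGF-β states the limma drug effect called 6 of 47 as fallen and 1 as risen, where 3.76% and 4.15% of all genes were called, and the median was −0.26 against 0.04. At an unadjusted p under 0.05, 27 were lower and 1 higher, where 10.6% of all genes were lower and 13.5% higher. In 36 of 47 the drug array was the lower in all 3 pairs (18.4% of all genes). The pair medians were −0.21 at 0 h, −0.23 at 12 h and −0.39 at 24 h. Housekeeping genes were also lower with the drug: 2 of 12 fell, 9 of 12 values were negative and the median was −0.21, with pair medians of −0.08, −0.14 and −0.37. The 3′/5′ control ratios were higher with drug in all 3 pairs, for actin 1.51 against 1.25 at 0 h, 1.32 against 1.29 at 12 h and 1.89 against 1.25 at 24 h, and for Gapdh 0.876 against 0.790, 0.798 against 0.777 and 0.976 against 0.777. Their part in the drug differences was not tested. By the 2-fold rule 0 of 47 were lower at 0 h (1.27% of all genes) and at 12 h (1.08%), 0 of 47 were higher at 12 h (1.78%), and Nuf2 and Racgap1 were lower at 24 h (2 of 47, 1.97% of all genes).

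The genes that fell with the drug came from several roles. Racgap1 had signals of 5247, 6994 and 5760 at 0, 12 and 24 h without drug and 4084, 4689 and 2522 with it. Every drug array lay below every array without drug, an order whose share over all genes was not worked out. The drug effect was −0.71 ± 0.15 (adjusted p = 0.025, limma). Another Racgap1 probe set had 2329, 2249 and 2043 without and 1429, 1785 and 1202 with drug, also lower in all 3 pairs. Kif20a was at −0.65 ± 0.12 (adjusted p = 0.017), and its drug arrays were lower in every pair. Spc25 had 2447, 2841 and 1825 without drug and 1926, 2087 and 1130 with it, with an effect of −0.49 ± 0.10 (adjusted p = 0.028). Its arrays overlapped between the arms, since the 24 h array without drug lay under 2 of those with drug. Top2a at −0.49 ± 0.10, Cdk1 at −0.43 ± 0.10 and Ncaph at −0.36 ± 0.08 were the others. Ube2c at −0.05 ± 0.08, Ccnb2 at 0.00 ± 0.10 and Fzr1 at −0.01 ± 0.12 were not called. With the filter reapplied, leaving out 1 array left 3 to 9 fallen: Ncaph lost its call without either unstimulated or either 12 h array, Cdk1 and Spc25 without any 1 of the 4 stimulated arrays, and Top2a without the 24 h array with drug. With the filter of the 6 arrays kept, 0 were called.

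Cdc25b, a phosphatase that starts CDK1 activation at the centrosome, went the other way. Its signals were 1005, 855 and 787 at 0, 12 and 24 h without drug and 2679, 1176 and 1792 with SP600125. All 3 drug arrays lay above all 3 without drug, by 1.41, 0.46 and 1.19 on the log2 scale at 0, 12 and 24 h. The share of all genes separated this way was not worked out. Being higher in all 3 pairs, a weaker condition, held for 2864 of the 11698 genes tested. The drug effect was 1.02 ± 0.18 (adjusted p = 0.0144, limma). The call was made with any 1 array left out and the filter reapplied, but was lost in 6 of 6 such fits with the filter of the 6 arrays kept, with a filter of at least 1 array, with no intensity trend and with probe sets averaged per gene. Of the 47 genes it alone was 2-fold higher with drug, at 0 h (1 of 47, 3.09% of all genes) and at 24 h (1 of 47, 3.12%). The smallest difference was at 12 h, where the drug had been present for 12 h and not 24 h. That pair also differs from the others in TGF-β state, so the 2 cannot be told apart, and neither was tested. Its TGF-β values were −0.71 ± 0.22 at 12 h and −0.47 ± 0.22 at 24 h, not called.

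Whether TGF-β changed these genes differently with the drug was asked with an interaction term, with 12 h and 24 h pooled as a single stimulated state. In limma 0 of 47 were called in either direction, where 0% of all genes were, and 0 of 47 passed an unadjusted p under 0.05, against 143 higher and 171 lower of all genes. The median was −0.15. Cdc25b was at −0.59 ± 0.42 and Racgap1 at −0.52 ± 0.55. Since the genes differed between 12 h and 24 h, which this model counts as error, the values have wide errors and do not show that the responses were alike.

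Genes beyond the 48 that belong to the same processes were taken from 3 further lists. For the counts below, 7.59% of all genes tested fell and 9.16% rose at 24 h, and 3.76% fell with the drug. Of 47 other spindle, kinetochore and cytokinesis genes 18 fell and 0 rose at 24 h in limma, with a median of −0.46. They included Cenpi, a kinetochore protein, at −0.90 ± 0.16, the spindle protein Hmmr at −0.80 ± 0.12 and Cdca3 at −0.74 ± 0.13. Of 24 cohesin, condensin II and anaphase promoting complex genes 7 fell and 0 rose, with a median of −0.16. Ube2s, which extends ubiquitin chains for the same complex as Ube2c, was at −1.07 ± 0.12. Of 20 genes for mitotic entry and transcription 6 fell and 0 rose, with a median of −0.40. The mitotic kinase Pbk was at −0.94 ± 0.13, and the phosphatase Cdc25a fell at 12 h by 0.61 (SE 0.13, adjusted p = 0.0432) as well as at 24 h by 0.84. DNA replication, the neighbouring phase, is the nearest comparison: 31 of 40 fell and 0 rose at 24 h, with a median of −0.65. Its 12 h median was −0.14 against 0.08 for the mitotic genes, and its drug median −0.46 against −0.26, with 20 of 40 fallen. The difference between these lists was not tested. Of 12 housekeeping genes 3 fell at 24 h, Tfrc, Gusb and Hprt, with a median of −0.12. The median of the cohesin, condensin II and anaphase promoting complex list, −0.16, was close to this.

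The probe sets not used above gave a further reading of the same arrays. The 47 genes had 105 probe sets, of which 91 were above the floor on all arrays. Of these, 44 were not the brightest of their gene and belonged to 28 genes. At 24 h 36 of the 44 were lower than at 0 h in both arms, and 38 lower than at 12 h in both arms. The shares over all probe sets were not worked out. By gene, 27.8% and 24.2% of all genes tested were lower in these ways. Nek2 and Prc1 each had 1 whose sign was opposite to the chosen one in both 24 h pairs. Of the 47 probe sets used, 24 had the plain suffix and 11 the suffix for several transcripts of 1 gene. The 5 with the suffix for shared families (Nek2, Cdca8, Bub3, Prc1 and Pttg1) and the 7 with the suffix for mixed probes (Cdc25c, Aurkb, Incenp, Kif22, Kif2c, Ncaph and Cdc20) can read related transcripts, so their values are less certain.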

How the data were processed

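The authors deposited 1 linear intensity (signal) per probe set and array, computed by GCOS 1.2 according to the submitters' processing notes, with settings not given in the sources used here. The 2% trimmed mean was 500 on each array, and signals were used as deposited. Of 45101 probe sets 34958 had 1 symbol in the platform annotation, 932 several and 9211 none listed. The gene identifier of 34754 was found in the reference table. A gene was its probe set of highest mean log2. Signals under the 50th percentile (74.2) were set to it, and 11698 genes above it on at least 2 arrays were tested in limma 3.58.1 (R 4.3.3), with an intensity trend and Benjamini-Hochberg adjustment over all of them. The additive model had 2 residual and 6.09 prior degrees of freedom and shares its spread over all 6 arrays, so departures from additivity count as error. "Rose" and "fell" mark calls at an adjusted p under 0.05; errors after ± are limma standard errors. Groups came from sample titles. The number of arrays limits the precision. The script was tested on simulated data. Members, lists and tests were chosen with earlier results of these data known. Genes described in full are, per role, those with the 2 largest called 24 h effects, the smallest effect and any call against the group, plus those called in another comparison; every other member is given by value or count. Alternatives were another scaling, floor, filter, probe-set rule or prior, and leaving out each array.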

Additional observations from a re-analysis of the deposited data

Results flagged for a closer look

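The 18S ribosomal RNA control probe set, which enters no comparison of mitotic genes, read 5878.2 on the TGF-β 24 h array with drug, above the 506.5 of the untreated array. The same array was the lowest of the 6 for 44 of the 47 mitotic genes; the part of the control signal in this was not tested.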

How the results depend on the processing

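All 29 mitotic genes called for the 24 h TGF-β effect kept their sign under each alternative with 1 value per gene. The count fallen, 28, became 18 with probe sets averaged per gene, 48 of 99 probe sets with each as its own row, and 4 with no intensity trend; leaving out 1 array gave 16 to 29, or 0 to 7 with the gene filter of the 6 arrays kept, an alternative chosen after seeing the data. The count risen, 1, became 0 under median scaling, with a filter of at least 1 array and with no trend, and 2 with probe sets as rows; leaving out 1 array gave 0 to 1, and 0 with the filter kept. At 12 h the 2 risen became 1 under median scaling, with the mean of probe sets and with the filter of at least 1 array, and 0 with no trend; 1 fell with no floor; leaving out 1 array gave 1 to 2 risen and 0 to 1 fallen, and 0 to 1 risen with the filter kept. From 12 h to 24 h the 3 fallen became 0 under median scaling, with the mean of probe sets, probe sets as rows, the filter of at least 1 array and no trend, 7 with quantile normalization and with the 25th percentile as floor, 33 with no floor and 31 with a filter of at least 3 arrays, also chosen after seeing the data; leaving out 1 array gave 0 to 37, and 0 with the filter kept. For SP600125 the 6 fallen became 14 under median scaling, 10 with the filter of at least 3 arrays and 0 with the mean of probe sets, the filter of at least 1 array and no trend, and the 1 risen became 0 in the latter 3; leaving out 1 array gave 3 to 9 fallen and 1 risen, and 0 of both with the filter kept. The cause of these moves was not tested. The interaction gave 0 calls in every fit and could not be fitted without either unstimulated array.

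Median scaling shifted the all-gene median of the 24 h against 0 h pair with drug by −0.12, moved the mitotic median there from −0.66 to −0.83, and the drug median at 24 h from −0.39 to −0.51. Under it 5.82% of all genes rose and 11.4% fell at 24 h, against 9.16% and 7.59%; at 12 h 1.98% rose and 3.85% fell, against 2.74% and 2.5%; and with SP600125 2.99% rose and 5.8% fell, against 4.15% and 3.76%. Reversed 24 h values were Nek2 at 0.25 with the mean of probe sets, Ndc80 at 0.0094 without the unstimulated SP600125 array (leaving out 1 array gave −0.84 to 0.0094) and Racgap1 at 0.081 without the 24 h array with drug (−0.64 to 0.081). No paired analysis was possible because each condition has 1 array and the labels carry no replicate number.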
